A study of Mus musculus with 3 samples.

Results

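The proteasome genes of mouse biliary epithelial cells (BECs) were followed on 3 microarrays, leaving aside the interferon-induced immunoproteasome subunits. Members were the genes whose array symbol begins with Psm, a letter from a to g and a number, apart from *Psmb8*, *Psmb9* and *Psmb10*. The rule found 46 genes with 50 probes, among 19321 gene symbols and 23473 gene probes on the array. Where a gene had more than 1 probe, the probe with the highest mean over the arrays stood for it. Of the 46 genes, 44 encode proteasome subunits, assembly chaperones or regulators. *Psmc3ip*, which encodes a meiotic recombination factor, and *Psme3ip1*, which encodes a protein that binds the activator encoded by *Psme3*, match by spelling. All 46 genes gave a valid signal on all 3 arrays. *Psme2* and *Psmg4* are not analysed here.

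The cells were intrahepatic BECs from female BALB/c mice that were 8 weeks old, with no genetic change stated, and were cultured in medium with serum, growth factor and forskolin. The study set control BECs against BECs made senescent in 1 of 2 ways, by serum depletion or by glycochenodeoxycholic acid (GCDC, a conjugated bile acid) at 200 μM, each for 4 to 7 days by the labels (7 days in the account of the arrays). How long the control cells were cultured is not given in the sources used here. Each condition had 1 one-colour 3D-Gene array that held RNA pooled from 2 independent experiments, so within these arrays the spread between cultures is not seen, no difference has a replicate check and precision is limited by having so few arrays. Both treatments were set against the same control array, so that an error on it enters both ratios. As RNA came from whole cultures, fewer cells of a type and less RNA per cell cannot be told apart.

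The proteasome degrades proteins that carry ubiquitin chains. Its 20S core is a barrel in which outer rings of alpha subunits gate the entry and inner rings of beta subunits hold the catalytic sites. The 19S regulatory particle caps the barrel: a base with ATPases unfolds the substrate, and a lid removes the ubiquitin. Other caps, the activators encoded by *Psme* genes, open the core without ATP. Proteasome genes are known to be transcribed together by NRF1 (*Nfe2l1*) through antioxidant response elements, and CCAAT boxes bound by NF-Y lie in many of their promoters.

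Promoter stretches are shown for some of the members that hold the letters of such an element. They are the catalytic subunits *Psmb5* and *Psmb6*, the beta subunit *Psmb3*, and the activators *Psme3* and *Psme4*, which moved the other way. The sequences are from RefSeq (GRCm38.p6), run 5′ to 3′ on the gene's strand, and carry in capitals the antioxidant response element (TGACNNNGC) in *Psmb5*, *Psmb6* and *Psme4* and the CCAAT box in *Psmb3* and *Psme3*, on either strand.
*Psmb5* (chr14:54617996-54618145, minus strand): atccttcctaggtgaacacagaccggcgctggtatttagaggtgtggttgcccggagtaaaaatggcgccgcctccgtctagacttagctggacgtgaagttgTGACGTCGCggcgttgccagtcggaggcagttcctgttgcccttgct
*Psmb6* (chr11:70525207-70525356, plus strand): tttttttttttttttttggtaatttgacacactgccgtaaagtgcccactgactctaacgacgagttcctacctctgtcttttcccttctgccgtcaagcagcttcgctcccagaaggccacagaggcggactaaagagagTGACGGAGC
*Psmb3* (chr11:97703284-97703433, plus strand): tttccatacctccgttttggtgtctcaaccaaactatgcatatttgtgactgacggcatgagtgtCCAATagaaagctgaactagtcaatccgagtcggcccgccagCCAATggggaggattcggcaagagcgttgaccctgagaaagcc
*Psme3* (chr11:101316063-101316212, plus strand): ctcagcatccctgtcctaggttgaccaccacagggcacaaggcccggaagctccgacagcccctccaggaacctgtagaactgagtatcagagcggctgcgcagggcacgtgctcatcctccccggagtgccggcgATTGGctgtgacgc
*Psme4* (chr11:30771625-30771776, plus strand): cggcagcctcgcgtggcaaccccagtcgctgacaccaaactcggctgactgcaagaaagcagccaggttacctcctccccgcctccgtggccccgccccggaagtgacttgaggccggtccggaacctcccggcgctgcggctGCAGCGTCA
The stretches shown reach only about 150 bases before the start site, so the elements in them lie near it by selection. In *Psmb5* the antioxidant response element ran from base -47 to -39 and in *Psmb6* from -9 to -1, counted from the start site. In *Psme4* it ran from -7 to 2 on the opposite strand.

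Windows from 250 bases before to 50 after the start site were searched on both strands for the same letters. The promoter table held a window for 36 of the 44 proteasome genes. *Psma8*, *Psmb1*, *Psmb2*, *Psmb7*, *Psmc3*, *Psmd3*, *Psmd7* and *Psmg2* had none. TGACNNNGC was found in 6 of the 36 windows (16.7%), against 14% of 27025 genes in the table. The other genes with it were *Psmd9* (from base -31), *Psmc6* (from -227) and *Psmd12* (from -247). CCAAT was found in 13 of 36 windows (36.1%), against 41.1% of all genes, with 6 of 11 core genes (54.5%) and 4 of 14 genes of the 19S particle (28.6%). The activator *Psme4* fell and *Psmb5* and *Psmb6* rose, and all 3 hold the antioxidant response letters. *Psmb4* and *Psma5* rose in both treatments and held neither motif in their windows. A match describes these letters only and is not a measured binding site.

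The level of a probe is its signal above the blank spots, scaled so that each array has a median of 25. Between 20215 and 20947 gene probes were valid on an array, and positive control probes varied by 8.73% to 14.4% (CV over 23 or 24 spots) within an array. All 8 cholangiocyte markers on the array were valid in every condition. *Krt7* was at 14725, 19913 and 24861 on the control, serum depletion and GCDC arrays, while *Sox9* (16.7) and *Cftr* (25.6) were dim in control. The summed level of this list was 32202, 36233 and 57994, with *Krt19* risen in GCDC treatment (log2 ratio 1.05) and *Prom1* fallen in both (-2.37 and -1.54). The same sums were 126, 436 and 169 for hepatocyte markers (8 on the array; *Alb* 3.66, 2.34 and 3.44), 94.8, 99.99 and 129 for macrophage markers (6; *Adgre1* not valid), 9.85, 19.3 and 9.21 for lymphocyte markers (4; *Cd3e* at most 1.55), 62.5, 87.3 and 76.4 for mesenchymal markers (6) and 27.4, 58.3 and 62.1 for endothelial markers (5; *Pecam1* valid on the control array alone). Validity does not separate these lists. In control 7 of 8 hepatocyte, 6 of 6 mesenchymal and 5 of 5 endothelial markers were valid. So were 5 of 6 macrophage and 3 of 4 lymphocyte markers. *Fgb* (55.5), *Cd68* (42.5) and *Csf1r* (42.1) lay above *Sox9* and *Cftr* in control. *Kdr*, of the endothelial list, rose in both treatments (log2 ratio 1.26 and 1.31). The part of these cell types in the results below was not tested. *Ttr*, at 288 in serum depletion, made up most of the rise of the hepatocyte sum.

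Of the 14 core subunits of the proteasome, 10 rose more than 2-fold in serum depletion, 9 in GCDC treatment and 8 in both, most regulatory subunits stayed within 2-fold, and the activators *Psme3* and *Psme4* fell. With quantile normalization or cyclic loess the core subunits that rose were 2 in serum depletion and 1 in GCDC treatment. Among the 44 proteasome genes, 17 rose more than 2-fold in serum depletion and 3 fell, which is 38.6% and 6.82% of them, while over all gene probes compared 13.5% rose and 11.1% fell. In GCDC treatment 19 rose and 2 fell, or 43.2% and 4.55%, against 13.0% and 8.51% of all gene probes. Probes with a control level above 300 rose more often than those between 3 and 300 on these arrays, and all 20S and 19S subunits lay above 300. Over the 1938 gene probes with a control level in the range of the 20S and 19S subunits, from 316 to 2071, the share that rose was 26.3% in serum depletion and 27.5% in GCDC treatment, and the share that fell was 9.24% and 5.57%. Restricting these further to genes with a genomic span in the range of the subunits gave 24.8% and 26.2% risen, and 9.71% and 5.81% fallen. The median log2 ratio of the 44 genes was 0.87 in serum depletion and 0.92 in GCDC treatment, while that of all gene probes was 0.16 and 0.23, and that of gene probes in the same range of level 0.43 and 0.53.

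**Figure D1:**
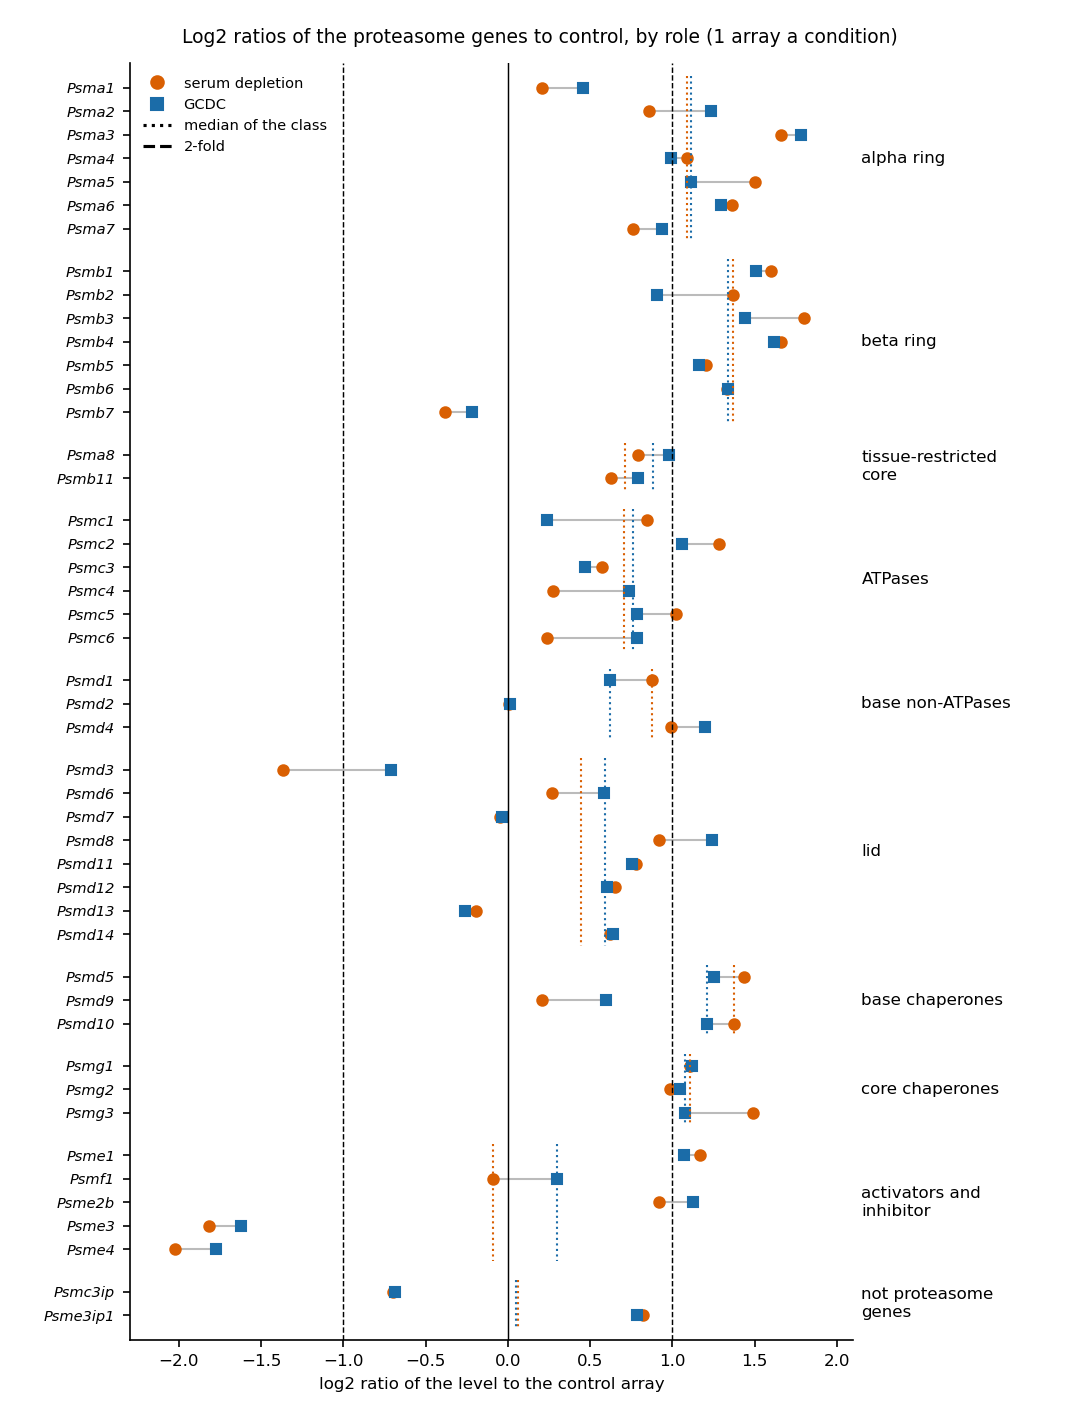
Log2 ratio of each of the 46 genes to the control array (x axis), grouped by role (rows), with circles for serum depletion, squares for GCDC treatment, dotted lines for the median of a class and dashed lines at 2-fold. Most circles and squares of both core rings lie past the right dashed line, most of the lid does not, and *Psme3* and *Psme4* lie past the left one; the counts past 2-fold fall under other normalizations, as given in the text.

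The alpha ring, which gates the channel, had 4 of its 7 subunits risen in each treatment and none fallen, with a median log2 ratio of 1.09 in serum depletion and 1.12 in GCDC treatment. *Psma3* was at 316 in control, 1003 in serum depletion and 1090 in GCDC treatment, a log2 ratio of 1.66 and 1.78. Both treated arrays were thus about equally far above control for this subunit. *Psma6* went from 1434 to 3692 and 3517 (log2 ratio 1.36 and 1.29), and *Psma5* from 1129 to 3200 and 2448 (1.5 and 1.12). *Psma4* passed 2-fold in serum depletion only (1001, 2133 and 1993, log2 ratio 1.09 and 0.99) and *Psma2* in GCDC treatment only (1694, 3066 and 3991, 0.86 and 1.24), each close to the threshold in the other treatment. *Psma7* (0.76 and 0.94) and *Psma1* (0.21 and 0.46) stayed within 2-fold.

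The beta ring had 6 of 7 subunits risen in serum depletion and 5 of 7 in GCDC treatment, and none fallen, with medians of 1.37 and 1.34. Its catalytic subunits did not move together. *Psmb5*, which encodes the chymotrypsin-like site, was at 2071 in control, 4780 in serum depletion and 4631 in GCDC treatment (log2 ratio 1.21 and 1.16). *Psmb6*, which encodes the caspase-like site, was at 1420, 3581 and 3593 (1.33 and 1.34). Both lay past 2-fold above control on both treated arrays, but within it with quantile normalization (*Psmb5* 0.39 and 0.29, *Psmb6* 0.47 and 0.50) and cyclic loess (0.35 and 0.32, 0.54 and 0.54). *Psmb7*, which encodes the trypsin-like site, was at 825, 632 and 710, with a log2 ratio of -0.38 and -0.22, below control on both treated arrays but within 2-fold, although it passed 2-fold in serum depletion with cyclic loess (-1.0). The log2 ratio of *Psmb5* exceeded that of *Psmb7* by 1.59 in serum depletion and 1.38 in GCDC treatment. Array scaling cannot change this difference. Under the normalizations that can, it was at least 1.30 and 1.14. Each of these genes has 1 probe on the array, so the difference could not be checked with a second one.

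The noncatalytic beta subunits rose in both treatments except *Psmb2* in GCDC treatment. *Psmb3* was at 735, 2561 and 1999 (log2 ratio 1.80 and 1.44) and had the highest ratio of the 46 genes in serum depletion. *Psmb4* was at 1427, 4506 and 4378 (1.66 and 1.62), and *Psmb1* at 1725, 5227 and 4906 (1.60 and 1.51). The treated arrays agreed more closely for *Psmb4* and *Psmb1* than for *Psmb3*. *Psmb2* was at 753, 1946 and 1414 (1.37 and 0.91).

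**Figure D2:**
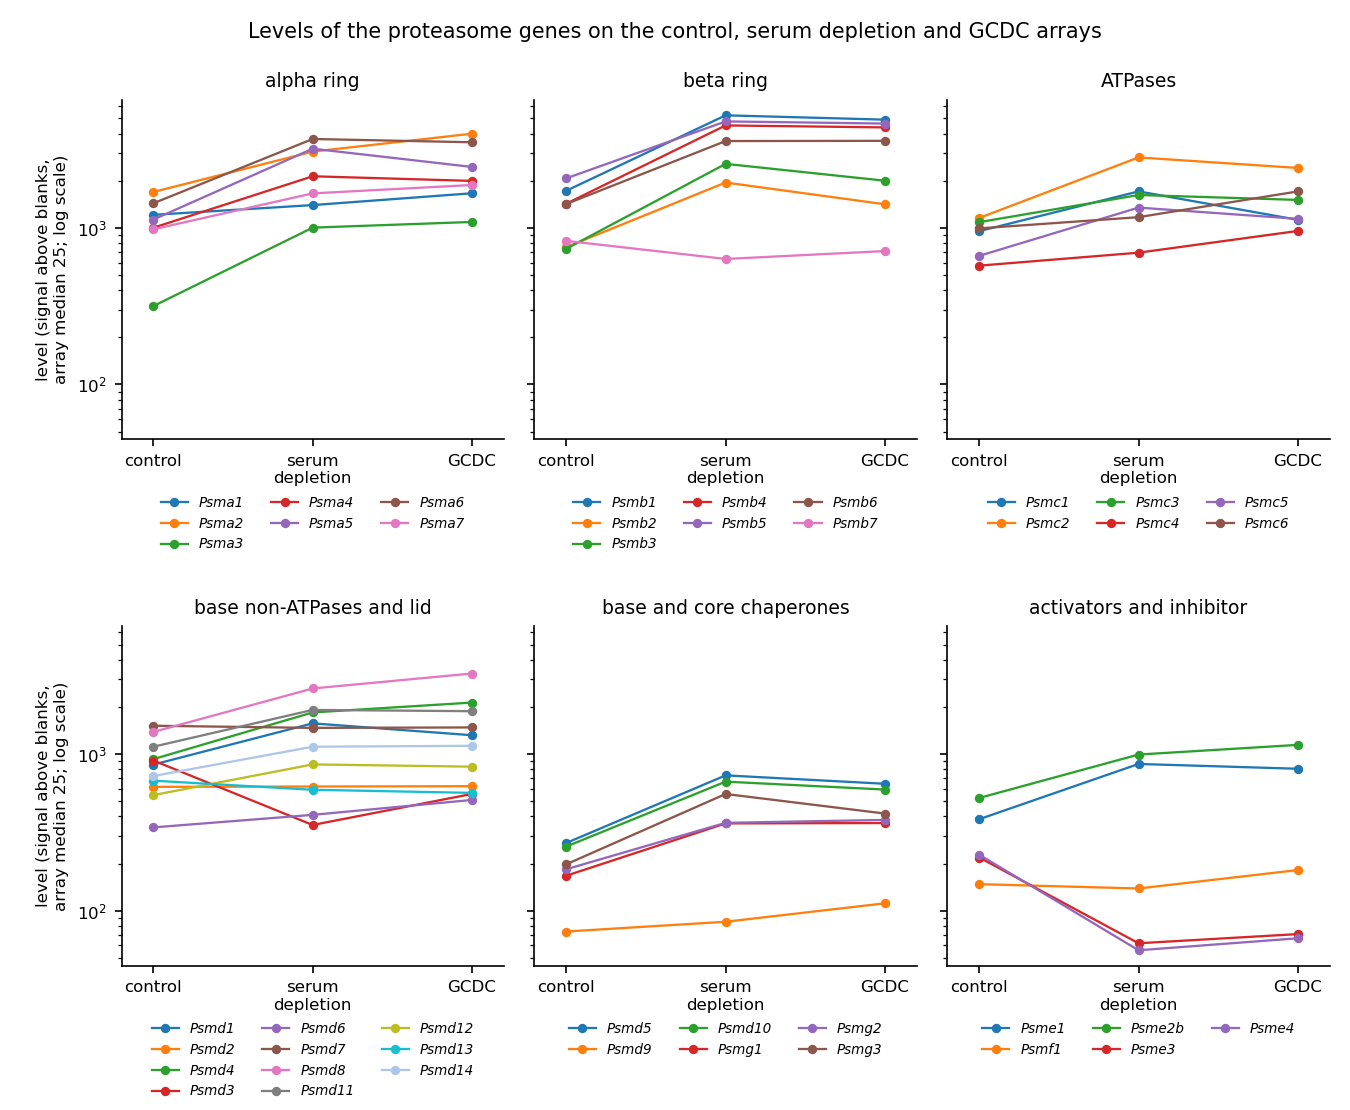
Level of each gene (y axis, signal above blanks with an array median of 25, log scale) on the control, serum depletion and GCDC arrays (x axis), 1 line for each gene and 1 panel for each role, with no error bars because each condition had 1 array. The lines of the beta ring climb together from control to both treated arrays except that of *Psmb7*, and those of *Psme3* and *Psme4* drop from 219 and 228 to between 55.9 and 70.9.

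The 19S regulatory particle moved less. Of its 17 subunits 2 rose and 1 fell in serum depletion (11.8% and 5.88%), and 3 rose and none fell in GCDC treatment (17.6% risen), shares below those of gene probes of like level. Its median log2 ratio was 0.62 in both treatments, above that of gene probes of like level (0.43 and 0.53). With quantile normalization the 19S median was -0.01 and -0.04, below that of all gene probes (0.116 and 0.099). Among the 6 ATPases of the base, *Psmc2* rose in both treatments (1157, 2815 and 2411; log2 ratio 1.28 and 1.06) and *Psmc5* in serum depletion (662, 1346 and 1141; 1.02 and 0.79). The others stayed within 2-fold, with *Psmc1* at 0.84 and 0.24, *Psmc3* at 0.58 and 0.47, *Psmc4* at 0.27 and 0.74, and *Psmc6* at 0.24 and 0.78. *Psmd4*, a ubiquitin receptor, was at 929, 1844 and 2133 (0.99 and 1.20) and so passed 2-fold in GCDC treatment. The large scaffold subunits of the base differed from each other: *Psmd2* was at 618, 621 and 624 (0.01 and 0.01), and *Psmd1* at 0.87 and 0.62 on the log2 scale.

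In the lid, *Psmd3* fell and *Psmd8* rose, each in 1 treatment. *Psmd3* was at 909 in control, 352.5 in serum depletion and 557 in GCDC treatment, and so fell by 1.37 on the log2 scale in serum depletion and lay within 2-fold in GCDC treatment (-0.71). With quantile normalization its log2 ratio in GCDC treatment was -1.39, past 2-fold. Its other probe was dim, at 9.65 in control, with -0.80 and 0.40. *Psmd8* was at 1385, 2624 and 3270 (0.92 and 1.24), and its other probe, at 7.14 in control, gave 0.68 and 1.63. Both probes of *Psmd8* lay above control, while those of *Psmd3* differed in sign in GCDC treatment. *Psmd14*, which encodes the deubiquitinating enzyme of the lid, was at 0.62 and 0.64 on the log2 scale, and its partner *Psmd7* at -0.05 and -0.04. The remaining lid subunits lay between -0.26 (*Psmd13*, GCDC treatment) and 0.78 (*Psmd11*, serum depletion). The lid had a median log2 ratio of 0.44 and 0.59, lower than that of the ATPases (0.71 and 0.76) in both treatments.

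The core exceeded the regulatory particle under every processing tried, although array scaling cannot change the difference between their medians. The median log2 ratio of the 14 core subunits was 1.35 in serum depletion, and that of the 17 regulatory subunits 0.62, a difference of 0.73 or a ratio of 1.66. In GCDC treatment the medians were 1.20 and 0.62, a difference of 0.58 or a ratio of 1.49. Subunits spread widely within each particle, with an SD among genes of 0.61 for the core and 0.63 for the regulatory particle in serum depletion, and 0.51 and 0.52 in GCDC treatment, so that the particles overlapped. Over the alternatives the difference ranged from 0.48 to 0.77 in serum depletion and from 0.39 to 0.60 in GCDC treatment. A scale factor for an array moves both medians alike, so the scaling alternatives left the difference unchanged. In serum depletion and GCDC treatment it was 0.49 and 0.40 with quantile normalization, and 0.58 and 0.43 with cyclic loess. Without *Psmb7* and *Psmd3*, the lowest of each particle, it was 0.73 and 0.60, and with *Sem1*, a small lid subunit whose name the rule does not match, 0.71 and 0.57. The median genomic span of the genes was 11999.5 bp for the core and 13163 bp for the regulatory particle.

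The rise of the core became smaller, and the difference also but less so, with quantile normalization and cyclic loess. In the class of control levels from 1000 to 3000, the 9 core subunits had a median log2 ratio of 1.33 in serum depletion, the 5 regulatory subunits 0.78 and all 512 gene probes 0.62. In the class from 300 to 1000, the 5 core subunits had 1.37, the 12 regulatory subunits 0.45 and all 1663 gene probes 0.38. Core subunits thus lay above gene probes of like level in both classes, and regulatory subunits lay nearer to them. In GCDC treatment the brighter class gave 1.24, 0.75 and 0.68, and the other 0.94, 0.61 and 0.49. When quantile normalization made the distribution of levels equal on the arrays, 4 of the 46 members rose in serum depletion and 1 in GCDC treatment, against 10.6% and 8.23% of all gene probes, the core median became 0.48 and 0.36, and the 19S median -0.01 and -0.04. With cyclic loess 3 and 1 of the 46 members rose, against 8.82% and 6.63% of all gene probes, with core medians of 0.55 and 0.39. Under both normalizations the share of members that rose was thus no higher than that of all gene probes. With quantile normalization after normexp 3 and 1 of the 46 members rose, against 2.96% and 2.19% of all gene probes. The share of members was then higher in serum depletion but not in GCDC treatment. *Psma3* rose under every processing tried in both treatments, and *Psmb3* in serum depletion.

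**Figure D3:**
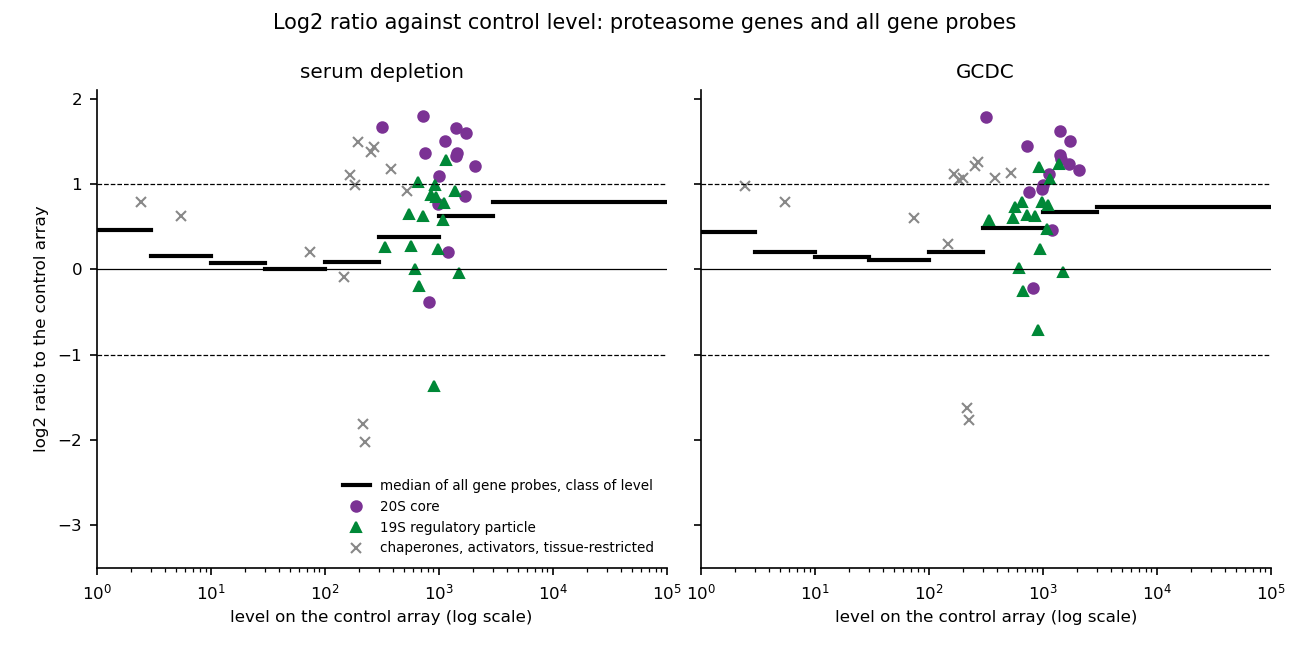
Log2 ratio to control (y axis) against the level on the control array (x axis, log scale) for serum depletion (left) and GCDC treatment (right), with circles for the 20S core, triangles for the 19S particle, crosses for the other proteasome genes and bars for the median of all gene probes in each class of level. The bars rise with level from 100 on, most circles lie above them and triangles lie on both sides.

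**Figure D4:**
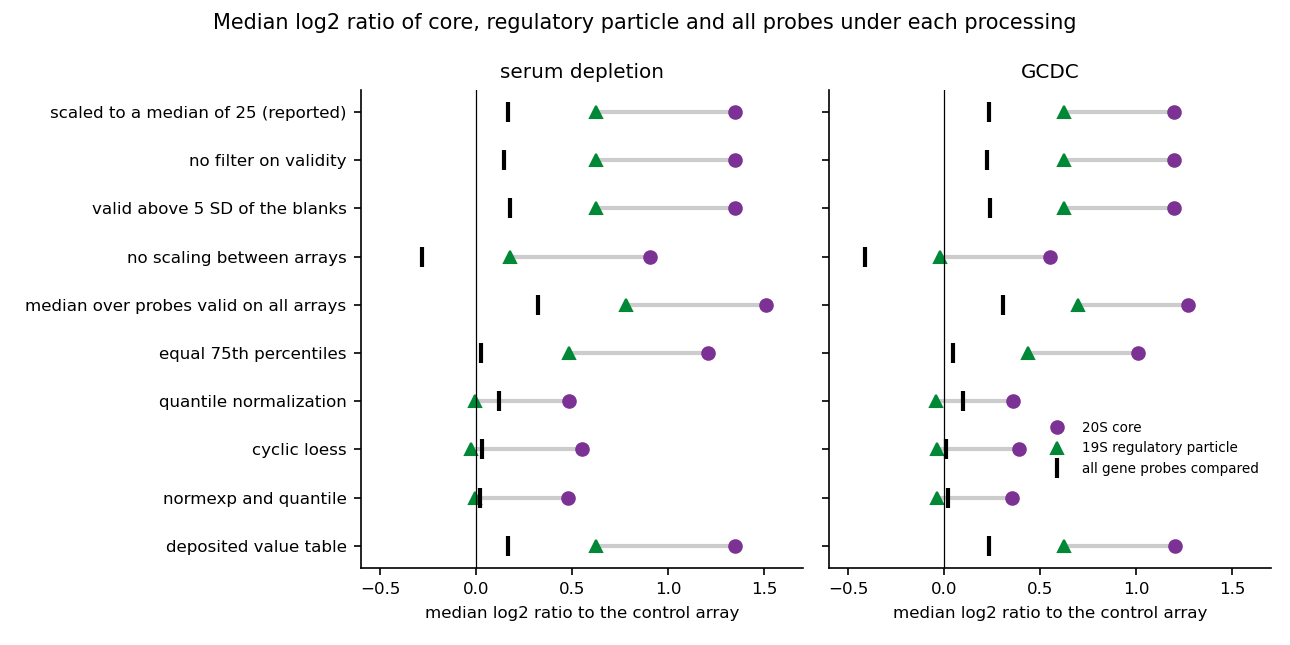
Median log2 ratio to control (x axis) of the 14 core subunits (circles), the 17 regulatory subunits (triangles) and all gene probes compared (bars) under the reported scaling and 9 alternatives (rows), for serum depletion (left) and GCDC treatment (right). The circle lies to the right of the triangle in every row, while the triangle lies just below 0 with quantile, cyclic loess and normexp normalization and, in GCDC treatment, with no scaling. Rows that differ only in array scaling keep the same distance between circle and triangle.

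Most assembly chaperones, which do not remain in the finished proteasome, rose. For the base these were 2 of 3 in each treatment. For the core they were 2 of 3 in serum depletion and 3 of 3 in GCDC treatment. All but *Psmd9*, which was dimmer, had a control level between 100 and 300. Over every gene probe of that class, the risen share was 14.6% (serum depletion) and 15.2% (GCDC treatment). Of the chaperones of the base, *Psmd5* was at 271, 731 and 646 (log2 ratio 1.43 and 1.26) and *Psmd10*, which encodes gankyrin, at 257, 667 and 593 (1.38 and 1.21). Both rose in both treatments, while *Psmd9* was at 73.6, 85.0 and 111 (0.21 and 0.60). A second, dim probe of *Psmd5*, at 5.48 in control, gave 0.87 and 0.70. Of the chaperones of the core, *Psmg1* was at 167, 361 and 363 (1.11 and 1.12), and *Psmg3* at 198, 556 and 417 (1.49 and 1.08). *Psmg2*, the partner of *Psmg1*, was at 184, 364 and 380, just short of 2-fold in serum depletion (0.98) and past it in GCDC treatment (1.05). Under quantile normalization *Psmd5* and *Psmg3* still passed 2-fold in serum depletion, and no chaperone did in GCDC treatment.

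The activators went in opposite directions. *Psme3*, which encodes the nuclear activator PA28 gamma, was at 219 in control, 61.9 in serum depletion and 70.9 in GCDC treatment, and fell by 1.82 and 1.62 on the log2 scale. *Psme4*, which encodes the nuclear activator PA200, was at 228, 55.9 and 66.7 and fell by 2.03 and 1.77. Both treated arrays lay far below control for both genes. Each of the 2 genes has 1 probe on the array, so its fall could not be checked with a second one. *Psme4* had the lowest ratio of the 46 genes in each treatment, and in the class of control levels from 100 to 300 14.2% of gene probes fell in serum depletion and 9.85% in GCDC treatment. Both stayed fallen under every normalization tried, at -1.48 or lower for *Psme3* in serum depletion and -1.42 or lower in GCDC treatment, and at -1.62 and -1.52 or lower for *Psme4*.

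*Psme1*, which encodes the alpha subunit of the interferon-induced activator PA28, was at 384, 865 and 806 and rose (1.17 and 1.07). Its other probe gave 1.12 and 0.67. *Psme2b*, a near-identical copy of the gene of the beta subunit whose probe may also bind that transcript, was at 525, 993 and 1145 (0.92 and 1.13). The log2 ratio of *Psme1* exceeded that of *Psme4* by 3.20 in serum depletion and 2.84 in GCDC treatment. The inhibitor *Psmf1* was at 148, 139 and 182 (-0.09 and 0.30).

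The core subunits of other tissues were barely above the blanks. *Psma8*, a testis subunit, was at 2.45, 4.24 and 4.84, with a control signal that exceeded the mean of the blanks by 4.91 of their SD. *Psmb11*, a subunit of the thymic cortex, was at 5.47, 8.46 and 9.46. Spots of 1 negative control probe had a median level of 1.92 in control and reached 2.72, above the level of *Psma8*. The ratios of *Psma8*, 0.79 and 0.98, thus rest on a control signal no higher than the brightest of these spots. *Psmc3ip* was at -0.70 and -0.69 on the log2 scale, and *Psme3ip1* at 0.82 and 0.79, opposite in sign to *Psme3*, whose product its own binds.

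GCDC treatment and serum depletion differed little in these genes, and little over all gene probes. In the ratio of GCDC to serum depletion, which does not use the control array, none of the 46 genes passed 2-fold in either direction, against 2.92% of gene probes that were higher and 2.2% that were lower. Few genes of 46 would pass at such shares, so this count does not set the members apart. All gene probes had a median of 0.08 in this ratio, and the 46 genes a median of 0.01 with an SD of 0.27 among genes. The widest were *Psmd3* (0.66) and *Psmc6* (0.55), higher in GCDC treatment, and *Psmc1* (-0.60) and *Psmb2* (-0.46), lower. The core and regulatory medians were -0.04 and 0.01. For 59 genes with a pair of probes above a level of 100 on all arrays, the probes of a gene differed by a median of 0.25 on the log2 scale in this ratio, and by 0.42 and 0.39 in the ratios of serum depletion and GCDC treatment to control. The 90th percentiles were 0.66, 1.42 and 1.18, so that many of the ratios of single genes past 2-fold, that of *Psmd3* in serum depletion included, are no larger than differences between probes of 1 gene.

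Genes that work with the proteasome but lie outside the rule were mixed. Of 37 genes listed, 28 were on the array, of which 6 rose and 3 fell in serum depletion and 8 rose and 1 fell in GCDC treatment. Without the 3 immunoproteasome genes 3 rose and 3 fell of 25 in serum depletion, and 6 rose and 1 fell in GCDC treatment, beside the shares of all gene probes given above (13.5% and 11.1%, and 13.0% and 8.51%). *Pomp*, which matures the core, was at 1035, 2349 and 2349 (1.18 and 1.18), and *Sem1* was at 1.21 and 1.13 on the log2 scale. Both rose in both treatments. Of the immunoproteasome subunits, *Psmb9* was at 2.66, 9.35 and 10.2 (1.81 and 1.95), *Psmb8* at 8.90, 20.4 and 21.3 (1.20 and 1.26) and *Psmb10* at 62.2, 180 and 93.1 (1.53 and 0.58). All 3 passed 2-fold in serum depletion and *Psmb8* and *Psmb9* in GCDC treatment. The control level of *Psmb9* lay just below that of the brightest spot of 1 negative control probe (2.72). *Vcp*, which encodes the p97 ATPase that extracts ubiquitinated proteins, was at 861, 2347 and 1435 and rose in serum depletion (1.45 and 0.74), while its cofactor *Nploc4* was at 65.5, 5.40 and 6.21 and fell in both (-3.60 and -3.40).

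The ubiquitin-activating enzyme *Uba6* (-1.17 and -0.83) and the shuttle *Rad23b* (-1.14 and -0.69) fell in serum depletion. Of the deubiquitinating enzymes that sit on the regulatory particle, *Uchl5* rose in GCDC treatment (0.999 and 1.06) and *Usp14* stayed within 2-fold (-0.47 and -0.01). *Txnl1*, a thioredoxin-like protein of the particle, was at 0.81 and 1.08. *Uba6*, *Rad23b*, *Uchl5* and *Txnl1* thus passed 2-fold in 1 treatment only. Among the transcription factors, *Nfe2l1* was at 147 in control, 222 in serum depletion and 312 in GCDC treatment (0.60 and 1.09), and so passed 2-fold in GCDC treatment. *Maff*, which encodes a small partner of such factors, was at 460, 508 and 1442 (0.14 and 1.65). *Nfe2l2* was at -0.49 and 0.00. The array measures transcripts, and the activity of these factors was not measured.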

How the data were processed

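RNA of control, serum-depleted and GCDC-treated BECs was hybridised to 1 one-colour 3D-Gene array each, and samples were grouped by their treatment labels. The authors scanned the arrays and deposited the median pixel intensity of every spot with no background subtracted, and a table of processed intensity. By the methods, the mean of the blank spots was subtracted and signals above 2 SD of the blanks were valid. Here blanks between the 5th and 95th percentile were used, invalid probes were left out and each array was scaled to a median of 25 (factors 0.615, 0.838 and 0.964), which returned the deposited validity on all 23473 gene probes. The limits of validity were 57.3, 60.3 and 53.7 on the intensity scale. The genome build used to design the probes is not given in the sources used here, and names came from the platform annotation.

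A gene was called risen or fallen past 2-fold where its probe was valid on both arrays compared. With 1 array per condition no test was made, and depth in the sense of counts does not apply. Named genes were members past 2-fold, the catalytic subunits, the extremes of each role, the widest differences between treatments, members with unlike probes and symbols that match by spelling. From the pathway lists they were those past 2-fold and the immunoproteasome. *Usp14* and *Nfe2l2* and the remaining subunits were given after their values were seen. The members and lists were chosen with earlier results of these data known. The alternatives were no filter on validity, a limit of 5 SD, no scaling, scaling by the probes valid on every array, equal 75th percentiles, quantile normalization, cyclic loess, quantile normalization after normexp (offset 50), the values as deposited, the mean over probes of a gene, a threshold of 1.5-fold and the activators added to the regulatory side. Promoter windows, symbols and spans were from RefSeq (GRCm38.p6). Genes of the pathway lists that were not matched to a probe are not analysed here. Python 3.11.15, numpy 2.4.6, pandas 2.3.3, matplotlib 3.10.9, R 4.3.3 and limma 3.58.1 were used, and the steps were tested on simulated data.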

Additional observations from a re-analysis of the deposited data

Results flagged for a closer look

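A negative control probe gave a signal in every condition, outside the gene probes compared. Of its 24 spots, 21 lay above the limit of validity in control, 22 in serum depletion and 17 in GCDC treatment. The median level of these spots was 1.92 in control, 2.38 in serum depletion and 1.76 in GCDC treatment, and the highest was 2.72, 4.10 and 2.80. Of the members, *Psma8* (2.45, 4.24 and 4.84) lay closest to these levels.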

How the results depend on the processing

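With no scaling between arrays 6 members rose in serum depletion and 1 in GCDC treatment, against 5.91% and 3.02% of all gene probes. In GCDC treatment 4 fell, against 21.8% of all gene probes. The median log2 ratio in that treatment was 0.20 for the members, 0.55 for the core and -0.025 for the 19S particle. The median of all gene probes was then -0.28 in serum depletion and -0.41 in GCDC treatment, against 0.16 and 0.23 with scaling. With equal 75th percentiles 11 members rose in GCDC treatment, against 8.58% of all gene probes. In serum depletion and GCDC treatment, quantile normalization gave 4 and 1 risen members, medians of 0.23 and 0.21 for the members, 0.48 and 0.36 for the core and -0.0056 and -0.043 for the 19S particle. Cyclic loess gave 3 and 1, 0.21 and 0.23, 0.55 and 0.39, and -0.029 and -0.041 for the same quantities, and normexp with quantile normalization 3 and 1, 0.12 and 0.16, 0.48 and 0.35, and -0.0060 and -0.040. Of all gene probes 10.6% and 8.23% rose with quantile normalization, 8.82% and 6.63% with cyclic loess, and 2.96% and 2.19% with normexp. At 1.5-fold 31 and 33 members rose and 4 fell in GCDC treatment. The share of all gene probes past 1.5-fold was not worked out, so these counts have nothing to stand beside. The cause of these shifts was not tested. The difference between core and regulatory medians stayed between 0.48 and 0.77 in serum depletion and between 0.39 and 0.60 in GCDC treatment, and the median log2 ratio of GCDC to serum depletion between -0.19 and 0.01. Array scaling alone cannot change the difference between core and regulatory medians. Of 660 values of the 33 named genes under the alternatives that kept the 2-fold threshold, 137 were no longer past 2-fold, 14 came past it, 57 moved in size and none changed sign while past 2-fold. Only members past 2-fold with the reported scaling could be lost, 17 risen and 3 fallen in serum depletion and 19 and 2 in GCDC treatment. Over both treatments, quantile normalization lost 31 of these values, cyclic loess 32, normexp with quantile normalization 32 and no scaling 29. Some values within 2-fold did change sign. With quantile normalization *Psma1* was at -0.55 and -0.37, and *Psmc1* at -0.52 in GCDC treatment. Leaving out *Psmc3ip* and *Psme3ip1*, *Psmb7* and *Psmd3*, or adding *Sem1*, were alternatives chosen after seeing the data and moved no value by over 1.5 times. No paired analysis was possible because each condition had 1 array and the labels give no replicate numbers. Signal over background was lowest for *Psma8* and *Psmb11*, the members with a control level under 10, and no replicate could be left out.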
